A study of Saccharomyces cerevisiae with 15 samples.

Results

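The genes described here are 10 phosphate genes of budding yeast (Saccharomyces cerevisiae): the phosphate transporter genes PHO84, PHO89, PHO87, PHO90 and PHO91, the regulator gene SPL2, and the phosphatase genes PHO5, PHO11, PHO3 and PHO8. They were found by their symbols in the platform's probe-to-gene table and were chosen by their measured values, the differences between RNA polymerase II mutants and their wild types. All 10 were measured, among 5449 genes tested, each had 1 probe set, and no filter on low values was applied. The series holds 15 one-colour Affymetrix arrays of 5 W303 strains, with 3 biological replicates per strain. The mutants rpb1-1 (strain WRP1-12A) and rpb1S751F (strain WSR8-5A) carry alleles of the largest polymerase subunit, encoded by RPO21, and their wild type is WT1B (strain W303-1BR5), all 3 of mating type alpha. The mutant rpb2-10 (strain WRP2) carries an allele of the second largest subunit, encoded by RPB2, and its wild type is WT1A (strain W303-1AR5), both of mating type a. Each of the 5 strains is labelled as carrying ade2-1, can1-100 and his3-11,15 together with trp1-1, ura3-1, RAD5 and a leu2 allele that joins mutations 3 and 112. Cells were taken at mid-log phase from rich medium with added adenine (YPAD), and the labels give no temperature. Each allele is present in 1 strain, so an effect of the allele and another difference between that strain and its wild type cannot be told apart.

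In yeast the phosphate (PHO) pathway is switched on when phosphate is scarce. The cyclin-CDK complex Pho80-Pho85 phosphorylates the transcription factor Pho4 in rich phosphate and keeps it out of the nucleus, and in low phosphate the inhibitor Pho81 stops the kinase, so that Pho4, with its partner Pho2, activates transporters and secreted phosphatases. PHO5 is a classic model gene of chromatin opening at a promoter. Of the 10 genes, PHO84, PHO89, SPL2, PHO5, PHO11 and PHO8 are known Pho4 targets, while PHO87, PHO90, PHO91 and PHO3 are not known for activation by low phosphate.

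Values are deposited log2 expression levels, and each 1 on this scale is a 2-fold change. Median levels per array were 10.04 to 10.09 for the 9 alpha arrays and 7.75 to 7.83 for the 6 a arrays, so the arrays form 2 sets with separate scales, and levels are compared only within a set. Probe sets for genes of another species served as background. On all 15 arrays the 10 genes exceeded this background, taken at its 95th percentile, and the smallest margin, 2.64, was that of SPL2 in rpb1S751F. The median replicate SD over all tested genes was 0.12 in rpb1-1, 0.13 in rpb1S751F and 0.11 in WT1B, and 0.066 in both rpb2-10 and WT1A. RPO21 rose by 0.40 ± 0.07 in rpb1-1 and by 0.37 ± 0.07 in rpb1S751F (log2 difference ± SE), and RPB2 did not pass the test in rpb2-10 (0.0039 ± 0.065). The rise in the rpb1 strains was not particular to RPO21, since RPB2 rose there by 0.63 ± 0.06 and 0.36 ± 0.06. RPO21 did not pass in rpb2-10 (0.15 ± 0.07). The mating-type markers followed the labels of the wild types, since the 7 a-specific markers were higher in WT1A than in WT1B and the 5 alpha-specific markers lower, each past the limma threshold. The markers themselves moved in the rpb1 strains. In rpb1-1 all 5 alpha-specific genes fell, and of the 7 a-specific genes 3 rose and 3 fell, where 31.7% of all tested genes rose and 29.8% fell. In rpb1S751F 3 alpha-specific genes fell, and 6 a-specific genes rose and 1 fell, where 36.0% rose and 28.3% fell. The part of these shifts in the results below was not tested. URA3 averaged 5.36 in rpb1-1 and 11.57 in WT1B, and HIS3 averaged 2.12 in rpb2-10 and 8.32 in WT1A, although the labels give the same ura3 and his3 alleles to all strains.

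The 3 mutants left different subsets of the 10 genes low. In rpb1-1 the phosphatase genes PHO11 and PHO5 were far below WT1B while SPL2, PHO84 and PHO89 were not. In rpb1S751F SPL2, PHO11, PHO5, PHO89 and PHO84 were all below WT1B by at least 1.95 on the log2 scale. In rpb2-10 PHO89 and PHO5 were furthest below WT1A, and PHO11, SPL2 and PHO84 were lower by smaller amounts. These differences are the ones for which the genes were picked, so they are given as a description, with limma's SE for n = 3 arrays per group and no test. Each array measured RNA of a whole culture, so fewer cells with a transcript and less of it per cell cannot be told apart.

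**Figure D1:**
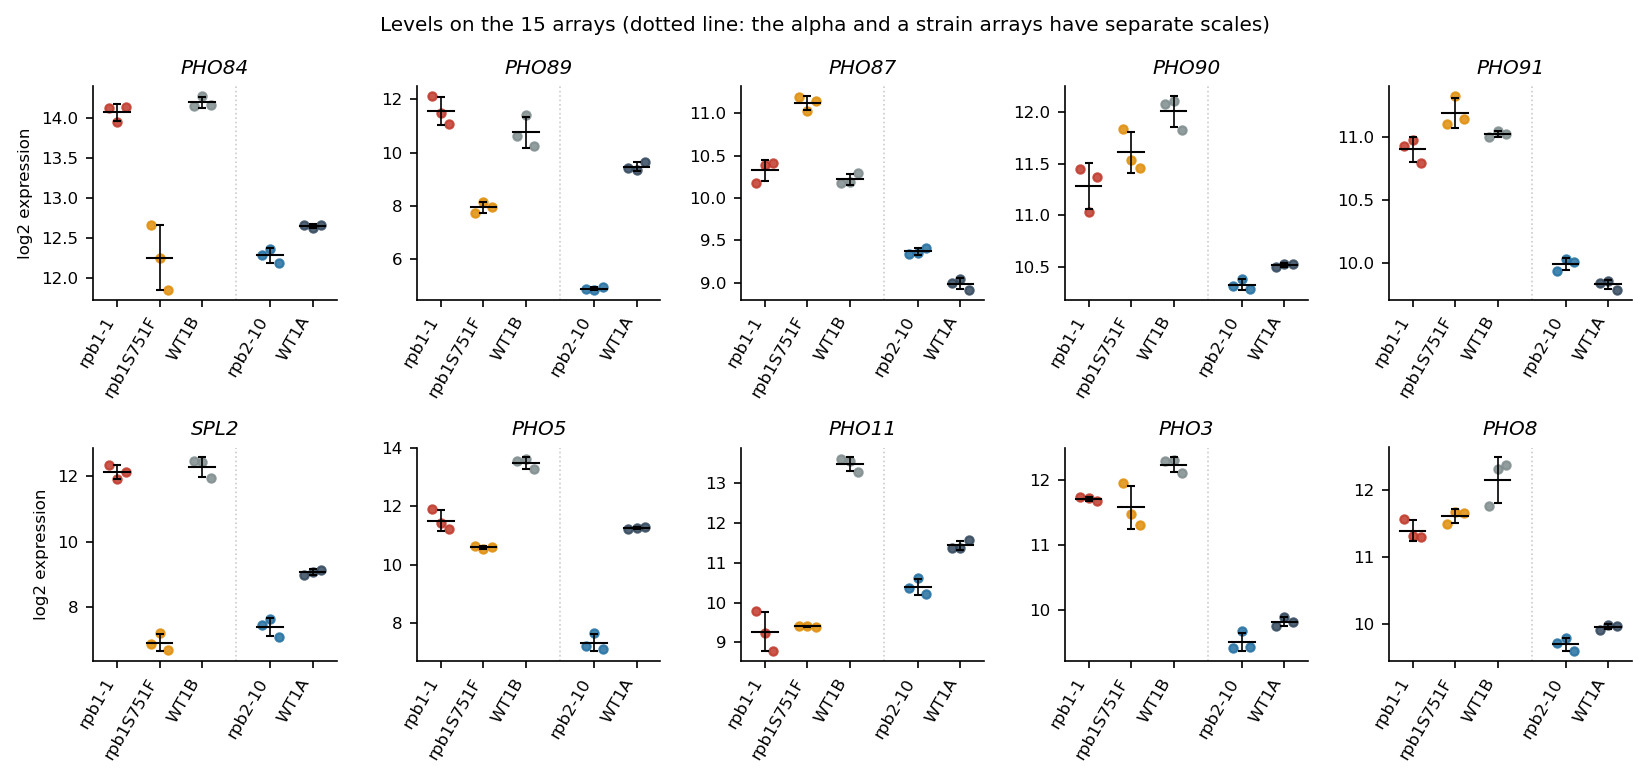
Log2 expression (y axis) of each of the 10 genes on the 15 arrays, by strain (x axis). Points are arrays, and black lines are means with SD (n = 3). The dotted line separates the alpha arrays from the a arrays, which have separate scales. SPL2 lies between 6.68 and 7.20 in rpb1S751F, against 11.93 to 12.36 in rpb1-1 and 11.94 to 12.46 in WT1B.

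Of the 10 genes, 7 had all 3 rpb1-1 arrays below all 3 WT1B arrays (31.0% of all tested genes did), none had them all above (32.2%), and 3 overlapped. At the limma threshold, an adjusted p below 0.05 (Benjamini-Hochberg, 5449 tests), 5 were lower (29.8% of all genes) and 1 was higher (31.7%). In rpb1S751F, 7 genes lay below WT1B on all arrays (27.5% of all genes) and 2 above (35.0%), and limma called 8 lower (28.3%) and 2 higher (36.0%). In rpb2-10, 8 lay below WT1A on all arrays (42.0%) and 2 above (34.0%), and limma called 5 lower (30.8%) and 1 higher (26.2%). The median difference of the 10 genes was -0.34 in rpb1-1, -1.30 in rpb1S751F and -0.34 in rpb2-10, beside -0.0081, 0.041 and -0.047 over all tested genes. Because the genes were picked for these contrasts, nothing is read from the counts and medians.

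**Figure D2:**
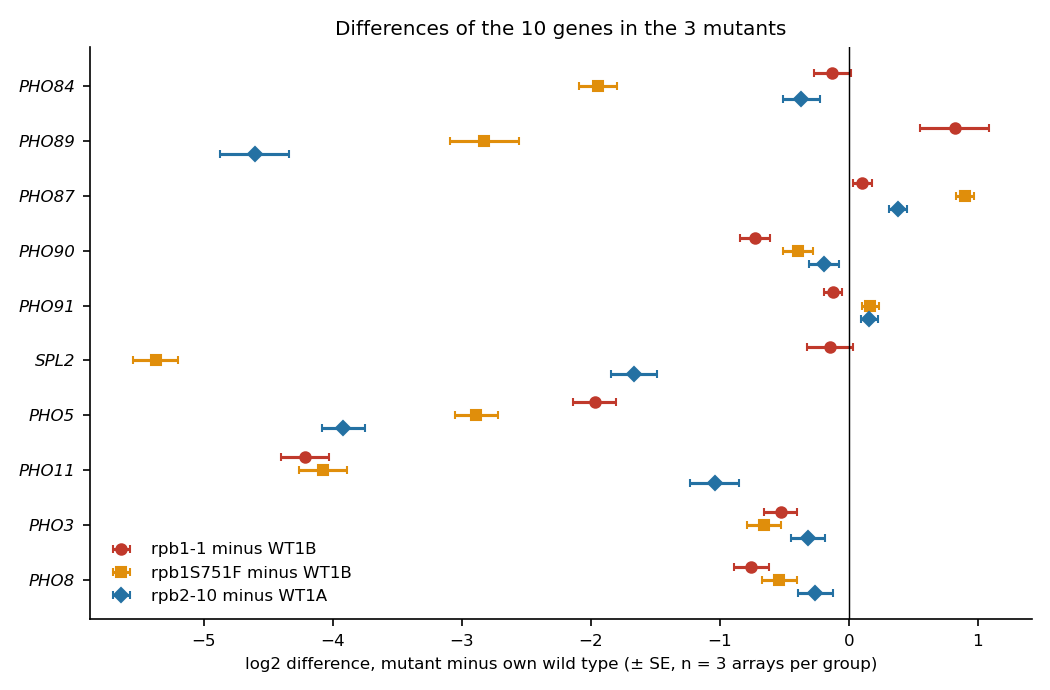
Log2 difference between each mutant and its own wild type (x axis) for the 10 genes (y axis), with limma's SE (n = 3 arrays per group). Circles are rpb1-1, squares rpb1S751F and diamonds rpb2-10. PHO89 is at 0.82 in rpb1-1, -2.83 in rpb1S751F and -4.60 in rpb2-10.

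Among the high-affinity transporters, PHO84 encodes the proton-coupled phosphate carrier that is the main uptake route of starved cells. Its level was 14.12, 13.95 and 14.14 in rpb1-1 and 12.66, 12.24 and 11.85 in rpb1S751F, against 14.14, 14.28 and 14.17 in WT1B. The rpb1S751F arrays lay apart from the other alpha arrays by at least 1.29, whereas the rpb1-1 arrays lay just below those of WT1B, with 0.0081 between the nearest arrays. The difference was -0.13 ± 0.15 in rpb1-1 and -1.95 ± 0.15 in rpb1S751F, where the level was 3.85-fold lower. PHO84 reached 14.28 on an alpha array, where the brightest probe set of any kind lay between 14.93 and 14.97, and whether differences near this upper end are compressed was not tested. On the a arrays PHO84 was at 12.29, 12.37 and 12.18 in rpb2-10, against 12.66, 12.62 and 12.66 in WT1A. The rpb2-10 arrays were all lower, by 0.37 ± 0.15.

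PHO89 encodes the sodium-coupled phosphate transporter, which is also known to be induced at alkaline pH. Its level was 12.14, 11.50 and 11.09 in rpb1-1 and 7.74, 8.12 and 7.93 in rpb1S751F, against 10.62, 11.40 and 10.25 in WT1B. The arrays of rpb1-1 and WT1B overlapped, while those of rpb1S751F lay 2.13 below the nearest WT1B array. The difference was 0.82 ± 0.27 in rpb1-1 and -2.83 ± 0.27 in rpb1S751F. PHO89 had the widest replicate spread of the 10 genes in rpb1-1 (SD 0.53) and in WT1B (SD 0.59). In rpb2-10 it was at 4.87, 4.82 and 4.92, against 9.42, 9.35 and 9.65 in WT1A. That difference, -4.60 ± 0.27, corresponds to a 24.3-fold lower level in rpb2-10. Its place in the order of effects therefore changed with the mutant: largest of the 10 genes in rpb2-10, after SPL2, PHO11 and PHO5 in rpb1S751F, and opposite in sign in rpb1-1.

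SPL2 encodes a small protein that lowers uptake by the low-affinity transporter Pho87 when the pathway is on. It was at 12.36, 11.93 and 12.13 in rpb1-1 and 6.86, 7.20 and 6.68 in rpb1S751F, against 12.46, 12.45 and 11.94 in WT1B. The rpb1-1 arrays overlapped WT1B, and no rpb1S751F array came within 4.74 of a WT1B array. The difference was -0.15 ± 0.18 in rpb1-1 and -5.37 ± 0.18 in rpb1S751F, which is a 41.5-fold lower level and the largest of the 30 differences. In rpb2-10 SPL2 was at 7.47, 7.64 and 7.09, against 8.97, 9.09 and 9.14 in WT1A. The arrays of these strains did not overlap, and the difference was -1.67 ± 0.18.

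The low-affinity transporters Pho87, Pho90 and Pho91 carry an SPX domain, and Pho91 acts at the vacuole. PHO87 was at 10.18, 10.38 and 10.41 in rpb1-1 and 11.20, 11.03 and 11.14 in rpb1S751F, against 10.18, 10.19 and 10.29 in WT1B. It was the gene with the largest positive difference in rpb1S751F, 0.90 ± 0.07, and overlapped WT1B in rpb1-1 (0.11 ± 0.07). In rpb2-10 PHO87 was at 9.34, 9.35 and 9.41, against 9.003, 9.05 and 8.92 in WT1A, a difference of 0.38 ± 0.07. The mutants in which SPL2 was low were thus those in which PHO87 was higher on all 3 arrays. PHO91 was also higher on all 3 arrays in these mutants, by smaller amounts. Whether SPL2 and these levels are linked was not tested.

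PHO90 lay on the other side of wild type. Its level was 11.45, 11.03 and 11.37 in rpb1-1 and 11.84, 11.53 and 11.46 in rpb1S751F, against 12.08, 12.11 and 11.83 in WT1B. The rpb1-1 arrays were all below WT1B (-0.72 ± 0.12), and 1 rpb1S751F array overlapped it (-0.40 ± 0.12). In rpb2-10 PHO90 differed by -0.19 ± 0.12. PHO91 had the smallest differences of the 10 genes in rpb1S751F and rpb2-10, and in rpb1-1 only that of PHO87 was smaller. It averaged 10.90 in rpb1-1, 11.19 in rpb1S751F and 11.02 in WT1B, and 9.99 in rpb2-10 and 9.83 in WT1A, and its differences were -0.12, 0.17 and 0.16 (SE 0.07 each).

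PHO5 encodes the main repressible acid phosphatase, which is secreted to the periplasm. It was at 11.89, 11.43 and 11.22 in rpb1-1 and 10.65, 10.54 and 10.60 in rpb1S751F, against 13.56, 13.63 and 13.26 in WT1B. The 3 alpha strains did not overlap, with rpb1S751F lowest. PHO5 was lower by a factor of 3.92 in rpb1-1 (log2 difference -1.97 ± 0.17) and of 7.40 in rpb1S751F (-2.89 ± 0.17). In rpb2-10 it was at 7.22, 7.68 and 7.12, against 11.21, 11.26 and 11.31 in WT1A. There the factor was 15.1 (-3.92 ± 0.17). PHO5 and PHO11 were the 2 of the 10 genes that lay lower by more than 1 on the log2 scale in each of the 3 mutants. For PHO11 in rpb2-10 this was close to the limit (-1.04 ± 0.19), and without rpb2-10 replicate 3 the difference was -0.95.

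PHO11 encodes another secreted acid phosphatase. Its probe set carries the mark of probes shared with other sequences, and PHO12, a near-identical gene at the end of another chromosome, is not named in the probe table, so the value may combine both genes. PHO11 was at 9.78, 9.22 and 8.79 in rpb1-1 and 9.41, 9.41 and 9.39 in rpb1S751F, against 13.61, 13.55 and 13.29 in WT1B. Both rpb1 mutants overlapped each other and lay at least 3.51 below WT1B. The difference was -4.22 ± 0.19 in rpb1-1 and -4.08 ± 0.19 in rpb1S751F, an 18.6-fold and a 16.9-fold lower level. In rpb2-10 it was at 10.36, 10.61 and 10.21, against 11.37, 11.37 and 11.56 in WT1A, a difference of -1.04 ± 0.19. PHO5 and PHO11 thus stood in opposite order in the mutants: PHO11 was the lower relative to wild type in both rpb1 strains and PHO5 in rpb2-10.

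PHO3 encodes an acid phosphatase that is repressed by thiamine rather than by phosphate, and it neighbours PHO5 on chromosome II. It was at 11.74, 11.72 and 11.69 in rpb1-1 and 11.96, 11.49 and 11.32 in rpb1S751F, against 12.30, 12.32 and 12.11 in WT1B. All 6 mutant arrays lay below WT1B, by -0.53 ± 0.13 in rpb1-1 and -0.66 ± 0.13 in rpb1S751F. In rpb2-10 PHO3 was at 9.41, 9.67 and 9.43, against 9.76, 9.89 and 9.82 in WT1A (-0.32 ± 0.13). The differences of PHO3 were therefore smaller than those of its neighbour PHO5 in each mutant. Whether transcripts of PHO3 and PHO5, which are similar in sequence, reach each other's probes was not tested.

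PHO8 encodes the alkaline phosphatase of the vacuole, which is not secreted. It was at 11.56, 11.31 and 11.29 in rpb1-1 and 11.49, 11.67 and 11.65 in rpb1S751F, against 11.75, 12.30 and 12.37 in WT1B. All mutant arrays were lower, by -0.75 ± 0.13 in rpb1-1 and -0.54 ± 0.13 in rpb1S751F, and WT1B replicate 1 lay apart below the other WT1B arrays. In rpb2-10 PHO8 differed by -0.26 ± 0.13.

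Set directly against each other, the rpb1 alleles differed most at SPL2, PHO89 and PHO84, which were higher in rpb1-1 than in rpb1S751F by 5.23 ± 0.18, 3.65 ± 0.27 and 1.82 ± 0.15, and at PHO5, by 0.92 ± 0.17. PHO87 was lower in rpb1-1 than in rpb1S751F, by -0.80 ± 0.07. PHO11 (-0.14 ± 0.19), PHO3 (0.13 ± 0.13) and PHO8 (-0.22 ± 0.13) overlapped between the alleles. Between the rpb1 and rpb2 alleles the differences are of effects, each taken within its own set of arrays. This removes an offset between the sets but not a difference in their spread. The effect of rpb1-1 minus that of rpb2-10 was 5.42 ± 0.38 for PHO89, 1.95 ± 0.23 for PHO5 and -3.18 ± 0.27 for PHO11. The effect of rpb1S751F minus that of rpb2-10 was -3.71 ± 0.25 for SPL2, -3.04 ± 0.27 for PHO11, -1.58 ± 0.21 for PHO84 and 1.78 ± 0.38 for PHO89. Both rpb1 strains share the WT1B arrays, so their effects are not independent.

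The contrast between the wild types was not itself used to pick the genes. Its arrays did enter the differences used for picking, so its p-values are not independent of that choice. Each array's median was subtracted first, because the scales differ. Centring removes an offset between the sets of arrays but not a difference in their spread. The brightest probe set lay between 14.93 and 14.97 on the alpha arrays and between 13.36 and 13.43 on the a arrays. Quantile normalization of all arrays together left 5 of the 10 genes called. In WT1A the transporter genes PHO91, PHO87, PHO89, PHO90 and PHO84 were higher than in WT1B and SPL2 was lower, while the 4 phosphatase genes did not pass the test. With 5 genes higher and 1 lower, the background is 34.6% and 29.0% of all tested genes. PHO91 was higher by 1.05 ± 0.06 (adjusted p = 1.95e-08, limma), PHO87 by 1.00 ± 0.07 (adjusted p = 1.28e-07), PHO90 by 0.75 ± 0.12 (adjusted p = 0.000101) and PHO89 by 0.95 ± 0.26 (adjusted p = 0.0063). SPL2 differed by -0.98 ± 0.17 (adjusted p = 0.000254). PHO84 was higher by 0.68 ± 0.15 (adjusted p = 0.00116), but by 0.36 with adjusted p = 0.0554 after quantile normalization of all arrays together. The phosphatase differences were 0.013 ± 0.17 for PHO5, 0.19 ± 0.19 for PHO11, -0.19 ± 0.13 for PHO3 and 0.049 ± 0.13 for PHO8. Mating type and the set of arrays cannot be told apart in this comparison.

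**Figure D3:**
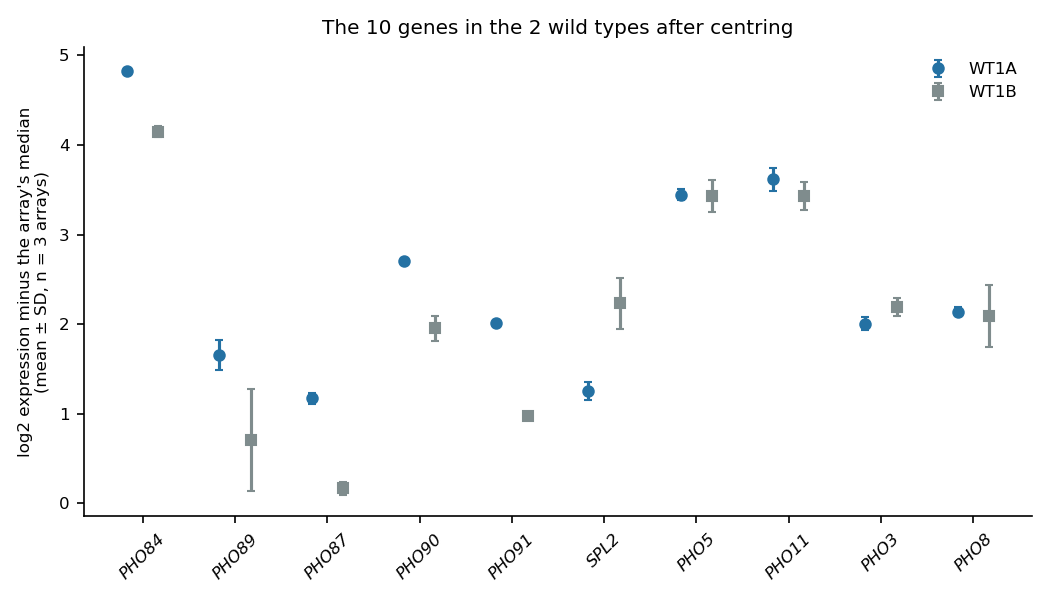
Log2 expression minus the median of the tested genes on the same array (y axis, mean ± SD, n = 3 arrays) for the 10 genes (x axis) in WT1A (circles) and WT1B (squares). PHO5 and PHO8 coincide within their error bars, and SPL2 is the gene whose WT1A mean lies furthest below WT1B, at 1.25 against 2.23.

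The other genes of the pathway were taken from lists drawn up with earlier results of these data known, so their counts are descriptions beside the background. Of 15 further textbook targets of Pho4, 14 were measured. In rpb1S751F 11 of them fell and 3 rose, and in rpb2-10 7 fell and 2 rose. In rpb1-1 only 2 fell and 6 rose. Over all tested genes 28.3% fell and 36.0% rose in rpb1S751F, 30.8% and 26.2% in rpb2-10, and 29.8% and 31.7% in rpb1-1. The list's median difference was 0.17 in rpb1-1, -0.83 in rpb1S751F and -0.36 in rpb2-10.

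PHO81, the inhibitor of Pho80-Pho85 and itself a Pho4 target, fell by 1.82 ± 0.07 in rpb1S751F (adjusted p = 1.12e-09, limma) and by 0.78 ± 0.07 in rpb2-10 (adjusted p = 2.03e-06). Its level was 11.45, 11.30 and 11.30 in rpb1-1 and 9.47, 9.27 and 9.26 in rpb1S751F, against 11.17, 11.25 and 11.05 in WT1B. The difference of 0.19 ± 0.07 in rpb1-1 had adjusted p = 0.0357, and this call was lost under 7 of 16 alternatives. VTC3, a subunit of the vacuolar polyphosphate polymerase, fell by 1.93 ± 0.09 in rpb1S751F (adjusted p = 2.67e-09) and by 0.43 ± 0.09 in rpb2-10. It did not pass in rpb1-1 (-0.022 ± 0.088). VTC1, VTC2 and VTC4 of the same complex also fell in rpb1S751F, by 0.57 ± 0.06, 1.01 ± 0.07 and 1.10 ± 0.07. In rpb1-1 VTC2 fell by 0.34 ± 0.07, and VTC1 and VTC4 did not pass. None of VTC1, VTC2 and VTC4 passed in rpb2-10, where VTC4 passed under 4 alternatives.

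PHM6, a phosphate-regulated gene of unknown function, fell in all 3 mutants. It was at 7.50, 6.16 and 7.20 in rpb1-1 and 5.95, 6.09 and 5.96 in rpb1S751F, against 11.13, 11.17 and 10.47 in WT1B, and at 5.40, 5.61 and 4.86 in rpb2-10, against 7.27, 7.33 and 7.59 in WT1A. Its differences were -3.97 ± 0.30, -4.92 ± 0.30 and -2.11 ± 0.30 in rpb1-1, rpb1S751F and rpb2-10 (adjusted p of 1.24e-07, 2.27e-08 and 5.57e-05). PHM6 thus resembled PHO5 and PHO11 in being low in rpb1-1, where most of the list was not.

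GIT1, a transporter of glycerophosphoinositol, rose by 0.58 ± 0.16 in rpb1-1 (adjusted p = 0.00617) and fell by 2.30 ± 0.16 in rpb1S751F (adjusted p = 8.61e-08), and the alleles differed by 2.88 ± 0.16 (adjusted p = 7.4e-09). PHM8, a phosphatase of lysophosphatidic acid and nucleotides, fell in rpb1S751F (-1.69 ± 0.12) and in rpb2-10 (-1.11 ± 0.12), and its 0.094 ± 0.12 in rpb1-1 did not pass. GDE1, a glycerophosphocholine phosphodiesterase, rose by 0.66 ± 0.11 in rpb1-1 and fell by 0.92 ± 0.11 in rpb2-10. Genes of the list with the opposite direction in rpb1S751F were PPN1, a polyphosphatase (0.58 ± 0.10), GPP2, a glycerol-phosphate phosphatase (1.52 ± 0.12), and PHM7 (2.05 ± 0.36). PPN1 also rose in rpb2-10, by 0.89 ± 0.10 (adjusted p = 9.87e-06). Between the rpb1 alleles 11 of the 14 genes were higher in rpb1-1 and 1 was lower, where 27.3% and 29.3% of all tested genes were.

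**Figure D4:**
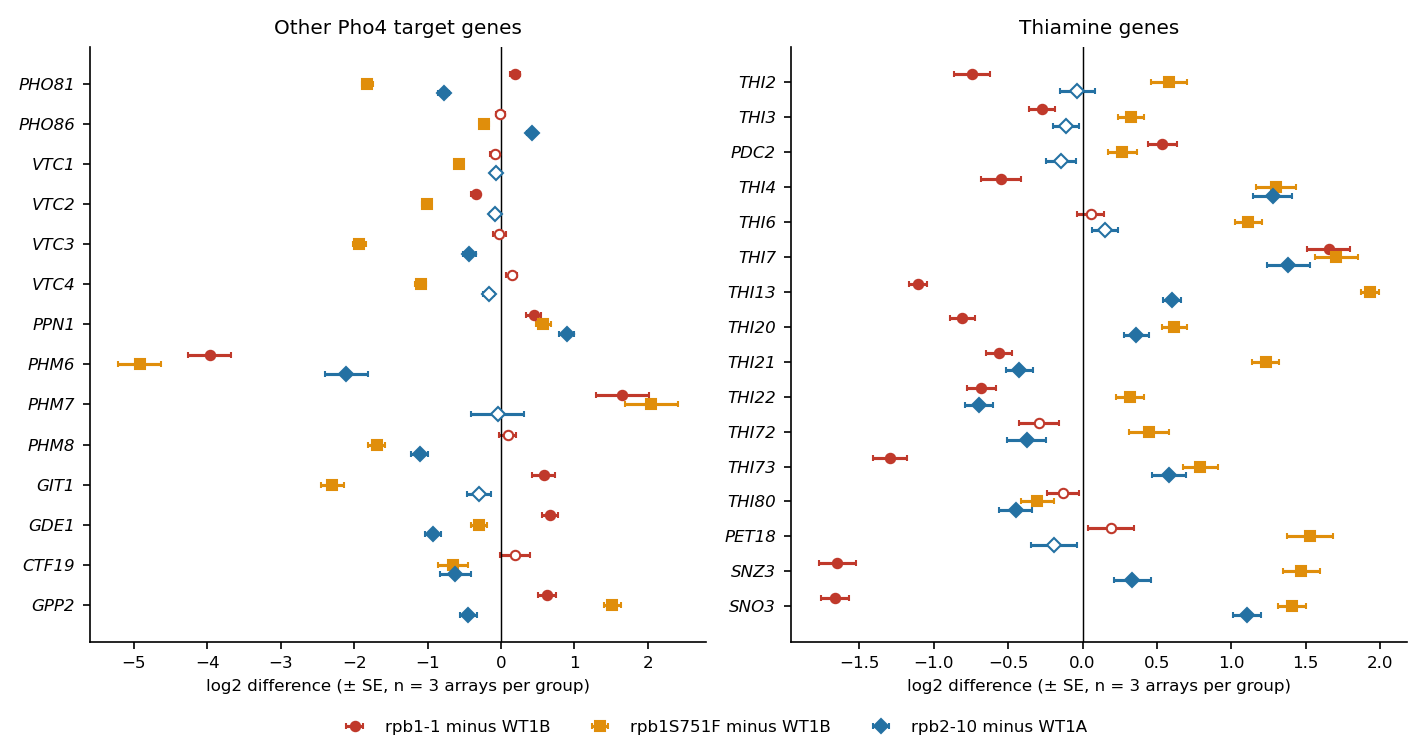
Log2 difference between mutant and own wild type (x axis, ± SE, n = 3 arrays per group) for 14 further Pho4 target genes (left) and 16 thiamine genes (right). Circles are rpb1-1, squares rpb1S751F and diamonds rpb2-10, and open symbols did not pass adjusted p below 0.05. In rpb1S751F 15 of 16 thiamine genes lie right of 0 and 11 of 14 Pho4 targets left of it.

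Of 12 genes for signalling components, 6 rose and 2 fell in rpb1-1 (31.7% and 29.8% of all tested genes did), 3 rose and 3 fell in rpb1S751F (36.0% and 28.3%), and 2 rose and 6 fell in rpb2-10 (26.2% and 30.8%). PHO4 itself differed by -0.21 ± 0.11, -0.048 ± 0.11 and 0.029 ± 0.11 in rpb1-1, rpb1S751F and rpb2-10 and passed in none, with adjusted p of 0.0942, 0.708 and 0.83. In rpb1-1 it passed under 3 of 16 alternatives. PHO2 rose by 0.92 ± 0.08 in rpb1-1 (adjusted p = 3.32e-07) and by 0.73 ± 0.08 in rpb1S751F (adjusted p = 3.41e-06) and fell by 0.31 ± 0.08 in rpb2-10 (adjusted p = 0.00417). The kinase gene PHO85 rose in all 3 mutants, by 0.74 ± 0.09, 0.67 ± 0.09 and 0.33 ± 0.09. Its cyclin gene PHO80 fell in rpb2-10, by 0.75 ± 0.08 (adjusted p = 5.76e-06), and did not pass in rpb1-1 (0.16 ± 0.08) or rpb1S751F (0.066 ± 0.080).

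Inositol polyphosphates bind SPX domains, and several genes of their synthesis were on the list. PLC1, phospholipase C, fell in all 3 mutants, with differences of -0.34 ± 0.10 in rpb1-1, -0.86 ± 0.10 in rpb1S751F and -0.78 ± 0.10 in rpb2-10. Its arrays overlapped between rpb1-1 and WT1B, and the call there was lost under 3 of 16 alternatives. VIP1, an inositol pyrophosphate kinase, rose by 0.75 ± 0.08 in rpb1-1 (adjusted p = 4.83e-06) and differed by 0.011 ± 0.084 in rpb1S751F. KCS1, another such kinase, fell by 0.71 ± 0.09 in rpb2-10 (adjusted p = 3.14e-05) and by 0.55 ± 0.09 in rpb1S751F. MSN5, the exportin that carries phosphorylated Pho4 out of the nucleus, rose in all 3 mutants, by 0.63 ± 0.08 in rpb1-1 (adjusted p = 8.6e-06), 0.31 ± 0.08 in rpb1S751F (adjusted p = 0.00261) and 0.38 ± 0.08 in rpb2-10 (adjusted p = 0.000744). ARG82, an inositol polyphosphate kinase, was higher in rpb1-1 than in rpb1S751F, by 1.51 ± 0.16 (adjusted p = 3.92e-06).

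Among 8 measured genes for other phosphate carriers and phosphatases, 2 rose and 5 fell in rpb1-1, 4 rose and 3 fell in rpb1S751F, and 3 rose and 2 fell in rpb2-10. Over all tested genes 31.7% rose and 29.8% fell in rpb1-1, 36.0% and 28.3% in rpb1S751F, and 26.2% and 30.8% in rpb2-10. The mitochondrial carrier gene PIC2 rose by 2.47 ± 0.23 in rpb1-1 (adjusted p = 7.59e-07) and by 0.80 ± 0.23 in rpb1S751F, and fell by 1.06 ± 0.23 in rpb2-10 (adjusted p = 0.00141). MIR1, the main phosphate carrier of mitochondria, rose by 0.82 ± 0.06 in rpb1-1 and by 0.59 ± 0.06 in rpb1S751F. ERD1, which returns phosphate from the Golgi, fell by 1.29 ± 0.10 and 1.08 ± 0.10 in the same strains. DIA3, a relative of the secreted acid phosphatases, rose by 1.73 ± 0.13 in rpb1S751F (adjusted p = 1.31e-07). Its difference was -0.39 ± 0.13 in rpb1-1 and 0.41 ± 0.13 in rpb2-10. DIA3 was lower in rpb1-1 than in rpb1S751F, by -2.12 ± 0.13.

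Thiamine genes were examined because PHO3 is repressed by thiamine. Of 16 measured genes, 15 rose and 1 fell in rpb1S751F (36.0% and 28.3% of all tested genes did), 2 rose and 10 fell in rpb1-1 (31.7% and 29.8%), and 7 rose and 4 fell in rpb2-10 (26.2% and 30.8%). In rpb1S751F PDC2 lost its call under 7 alternatives, THI80, the gene that fell, under 5 and THI22 under 2. THI3 and THI72 lost theirs under 1 each. Some calls in the other mutants changed too. THI13, of thiamine pyrimidine synthesis, rose by 1.93 ± 0.06 in rpb1S751F (adjusted p = 8.19e-11) and fell by 1.10 ± 0.06 in rpb1-1 (adjusted p = 8.28e-09). SNO3, of a vitamin B6 and thiamine gene pair with SNZ3, rose by 1.41 ± 0.09 in rpb1S751F and by 1.10 ± 0.09 in rpb2-10 and fell by 1.66 ± 0.09 in rpb1-1. The probe sets of THI13, SNO3 and SNZ3 carry the mark of shared probes. THI7, the thiamine transporter, rose in all 3 mutants, by 1.65 ± 0.15, 1.70 ± 0.15 and 1.38 ± 0.15. THI2, a transcriptional activator of the thiamine genes, fell by 0.74 ± 0.12 in rpb1-1 and rose by 0.58 ± 0.12 in rpb1S751F. Between the rpb1 alleles 13 of the 16 genes were lower in rpb1-1 than in rpb1S751F and 1 was higher, where 29.3% and 27.3% of all tested genes were, and PHO3 differed by 0.13 ± 0.13.

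The genes whose values, taken relative to their own wild type, followed 4 of the phosphate genes most closely over the 15 arrays were listed by Pearson correlation, which here rests largely on the 3 differences between strain means. For PHO84 they were VTC3 (r = 0.985), VTC1 (0.981), YHB1 (0.980), VTC4 (0.979) and TIM11 (0.964). SPL2 was followed by TIM11 (0.993), VTC3 (0.990), PHO81 (0.977), YDR514C (0.975) and CTK1 (0.975). For PHO5 the genes were GZF3 (0.986), MRPL38 (0.978), LSM6 (0.978), TIM23 (0.977) and RPP1A (0.970), with smaller differences than PHO5 itself, since GZF3 differed by -0.80, -1.28 and -1.43 in rpb1-1, rpb1S751F and rpb2-10. PHO11 was followed by YAL037C-A (0.985), YHR214C-E (0.983), UBP12 (0.978), YOL155W-A (0.975) and ATF2 (0.974). YHR214C-E is the gene next to PHO12 on chromosome VIII and UBP12 is the gene next to PHO90 on chromosome X. YHR214C-E was at 4.47, 4.48 and 4.04 in rpb1-1 and 4.37, 4.46 and 4.34 in rpb1S751F, against 6.67, 6.93 and 6.26 in WT1B. The mutant values of YHR214C-E were close to background, whose 95th percentile was 3.99 to 4.20 on the alpha arrays, and rpb1-1 replicate 3 lay below that of its own array.

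Of 14 measured genes next to the 10 on the chromosomes, 5 rose and 3 fell in rpb1-1 (31.7% and 29.8% of all tested genes did), 6 rose and 3 fell in rpb1S751F (36.0% and 28.3%), and 3 rose and 6 fell in rpb2-10 (26.2% and 30.8%). These counts are near the background. ARO9, an aminotransferase gene next to SPL2, was higher by 1.47 ± 0.11 in rpb1-1, by 1.37 ± 0.11 in rpb1S751F and by 0.78 ± 0.11 in rpb2-10. PBY1, on the other side of PHO5 from PHO3, differed by 0.019 ± 0.071, 0.015 ± 0.071 and -0.25 ± 0.07. TUB3, an alpha-tubulin gene next to PHO84, rose in all 3 mutants, by 0.34 ± 0.05, 0.68 ± 0.05 and 0.69 ± 0.05. YAR068W, the gene next to PHO11 on chromosome I in the R64 table, was lower by -2.50 ± 0.16 in rpb1-1 and higher by 0.68 ± 0.16 in rpb1S751F, whereas PHO11 was low in both. ARO9, PBY1, TUB3 and YAR068W were chosen for mention after their values were seen.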

How the data were processed

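The data are 15 arrays of total RNA, 3 per strain. The deposited values are log2 expression levels per probe set. Per the submitters' processing notes the authors used RMA and limma. Versions, genome build and filters were not given in the sources used here. RMA quantile-normalizes arrays, so a global shift is hidden and higher or lower means relative to other genes. Of 10928 probe sets, 5498 named 1 yeast gene through the platform table (12 symbols updated from the R64 gene table), and the brightest was kept for the 47 genes with several. A limma model (3.58.1, R 4.3.3) gave 1 mean per strain over the 15 arrays, with 10 residual degrees of freedom and moderated variances. Calls used a two-sided p below 0.05 after Benjamini-Hochberg adjustment across the 5449 genes. The fit shares 1 variance per gene, so its SE is too large for the less variable a strains and tends to be too small for the alpha strains. P-values set a difference between strain means against the spread between biological replicates, pooled over the 5 strains, and each allele is present in 1 strain. The number of arrays limits the precision. Replicates correlated at 0.986 to 0.998 across genes, and each array counted as 1 replicate. The fit was tested on simulated data with 1 variance per gene for all strains, which cannot check the effect of unequal spread between the a and alpha strains.

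The 10 genes and the gene lists were chosen with earlier results of these data known. The text names the 10 genes, RPO21, RPB2, PHO81, PHO2, PHO4, PHO80 and PHO85, and the 5 genes most correlated with PHO5, PHO11, PHO84 and SPL2. Up to 3 called genes with the smallest p were ranked per list and comparison, and not all of these are named. Others were chosen after their values were seen. PHO88 was measured under its current name SND3; PHO12, VTC5, THI5, THI11, THI12, SNZ2 and SNO2 were not analysed here. No coordinates or sequences are given; gene order comes from the R64 table. Array medians, other normalizations, filters, weights, smaller fits, a replicate block and leaving out each replicate were tried as alternatives.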

Additional observations from a re-analysis of the deposited data

How the results depend on the processing

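Over 16 alternatives (15 for PHO11, which has shared probes), the 30 mutant differences of the 10 genes kept their sign in 477 recomputed values, and 8 of these moved by more than 1 replicate SD. Some alternatives cannot change a difference between strain means, among them smaller fits, the replicate block and the filter on dim genes. Part of the agreement in sign was therefore fixed in advance. The numbers of genes called ranged from 2709 to 3694 in rpb1-1 (3348 as reported), 2804 to 3933 in rpb1S751F (3503) and 2604 to 4046 in rpb2-10 (3105), lowest without the dimmest 20% of genes and highest with array weights. Further Pho4 targets called numbered 6 to 8 in rpb1-1, 11 to 14 in rpb1S751F and 7 to 10 in rpb2-10. The lowest of these counts came from the setting without the dimmest genes, which also tests fewer list genes. For the wild types 5 or 6 of the 10 genes were called, and PHO84 lost its call under joint quantile normalization. Among 150 list-gene differences, 77 of 2358 values lost their call, 25 gained one and none reversed, and the cause was not tested. Same-numbered replicates deviated together in some pairs and not in others (correlations from -0.312 to 0.478), and the numbers were not taken to pair the samples. With the replicate number as a block the counts were 3393, 3532 and 3142 genes in rpb1-1, rpb1S751F and rpb2-10 and 8, 14 and 9 Pho4 targets.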
